A study of Mus musculus with 15 samples.

Results

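The genes that move sterols through the absorptive cells of the ileum were followed across 3 groups of mice: Npc1l1, Abcg5, Abcg8, Soat2, Abca1, Scarb1, Nr1h3 and Nr1h2. These 8 genes were taken by symbol from the 17752 genes listed in any mouse. They were selected on measured values, their FPKM and their differences between these groups being already known, so their levels and differences are given as a description and no test is read from them. Each of the 8 was listed in every mouse and passed the filter on low counts, which kept 14386 genes. The groups were female C57BL/6 mice of 8 weeks (C57BL/6JOlaHsd in the study's methods), 5 per group, given by gavage water alone, low molecular weight proanthocyanidins (low PAC) or high molecular weight proanthocyanidins (high PAC). PAC are condensed tannins, plant polymers of flavan-3-ol units, and here came from grape. The dose was 200 mg/kg on every 2nd day over 10 days, all mice ate the same purified diet, and every mouse contributed 1 RNA-seq library, made from its ileum. The name high PAC follows the labels, although the study's methods describe fractions of low and medium size. The labels do not say whether mice of a group shared a cage, so only the spread between the 5 mice of a group was measured as error.

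Cholesterol reaches the intestinal lumen from the diet and from bile. NPC1L1 in the brush border membrane takes it up, and ABCG5 and ABCG8, which work as a pair, pump plant sterols and surplus cholesterol back out. Inside the cell SOAT2 esterifies cholesterol for packing into chylomicrons, ABCA1 exports it across the basolateral membrane to apolipoprotein A-I, and SR-BI, the product of Scarb1, binds lipoproteins. The liver X receptors LXRα (Nr1h3) and LXRβ (Nr1h2) sense oxysterols and are known to drive transcription of Abca1, Abcg5 and Abcg8.

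The libraries held between 15963086 and 17903886 expected counts. The bile acid binding protein Fabp6, a marker of the ileum, averaged between 5679 and 7789 FPKM in the 3 groups, and pancreatic acinar markers summed to at most 3.0 FPKM in any mouse. Other markers differed between mice of the same group. High PAC replicate 3 stood apart with the lowest summed enterocyte markers, 4766 FPKM, and the lowest villin (Vil1), which was 783 to 968 FPKM in the other 14 mice. Water replicates 4 and 5 had the highest Gata4, 12.5 and 12.7 FPKM, and the lowest summed distal ileum markers, 5681 and 5391 FPKM. B cell markers of Peyer's patches summed to 73.7 to 242 FPKM in 7 mice, spread over all groups, and to under 10 FPKM in the other 8.

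Abcg5 and Abcg8 lie head to head on mouse chromosome 17 and share their upstream sequence, so the window before Abcg8 shows both promoters at once. Promoter windows of 300 bases, 250 before and 50 after the start of transcription, were found in RefSeq (GRCm38.p6) for 6 of the 8 genes. The windows of Abcg8, Npc1l1 and Abca1 are printed 5′ to 3′ along each gene. The first holds the shared promoter, the second belongs to the gene with the largest difference between groups, and the third holds a repeat of the type that LXR binds. Capitals mark matches to the motifs that are named after the sequences.
Abcg8, chr17:84682871-84683170, plus strand: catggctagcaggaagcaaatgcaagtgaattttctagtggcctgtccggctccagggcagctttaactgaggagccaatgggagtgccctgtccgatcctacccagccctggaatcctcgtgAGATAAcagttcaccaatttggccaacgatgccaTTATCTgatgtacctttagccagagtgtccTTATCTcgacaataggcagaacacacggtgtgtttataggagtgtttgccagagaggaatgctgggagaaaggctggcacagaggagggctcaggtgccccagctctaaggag
Npc1l1, chr11:6230196-6230495, minus strand: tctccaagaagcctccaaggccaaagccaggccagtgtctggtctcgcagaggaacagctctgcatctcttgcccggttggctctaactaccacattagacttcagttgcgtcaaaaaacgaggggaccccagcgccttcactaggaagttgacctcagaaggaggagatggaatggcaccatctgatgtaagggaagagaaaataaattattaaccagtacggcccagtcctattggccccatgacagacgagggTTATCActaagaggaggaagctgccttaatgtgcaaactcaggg
Abca1, chr4:53159846-53160145, minus strand: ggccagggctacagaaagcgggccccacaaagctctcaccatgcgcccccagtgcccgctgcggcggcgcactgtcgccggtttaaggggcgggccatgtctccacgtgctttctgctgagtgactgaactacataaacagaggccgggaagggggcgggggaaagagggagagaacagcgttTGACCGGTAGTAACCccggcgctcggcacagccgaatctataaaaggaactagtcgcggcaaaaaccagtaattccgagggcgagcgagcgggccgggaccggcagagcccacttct

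The start sites of Abcg5 (84683011, minus strand) and Abcg8 (84683121, plus strand) were 110 bases apart, and 209 bases were common to both windows. A second RefSeq start of Abcg8, at 84676302, lies inside the Abcg5 gene. Motifs were searched on both strands, and were chosen after the sequences had been seen. AGATAA and TGATAA are letters that GATA factors bind. The shared sequence held AGATAA 3 times, counting both strands, so each match was counted in the windows of both genes. Among all 32851 windows, 18.61% held at least 1 match to either GATA motif and 0.5023% at least 3. The Npc1l1 window held 1 TGATAA, on the strand opposite to the gene and beginning 6 bases after its RefSeq start, which lies 102 bases upstream of the start of the GENCODE gene given below. The Abca1 window held GGTNA followed after any 5 bases by a second GGTNA, a direct repeat of the type to which LXR binds with its partner RXR, and 0.7184% of all windows held it. The letters TCACNCCAC (a sterol regulatory element, in 1.242% of windows), CAAAGTCCA (HNF4, 0.4749%) and CAAGGTCA (LRH-1, 1.559%) were not in any of the 8 windows of these genes. The 2 windows of Nr1h3, the window of Nr1h2 and the second window of Abcg8 had no match.

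Expression per length of transcript was compared in FPKM, the fragments of a gene scaled for transcript length and for the mapped fragments of the library, as the authors computed it. In water mice the order of mean FPKM was Npc1l1, Abcg5, Abcg8, Soat2, Nr1h2, Nr1h3, Abca1 and Scarb1. Over the 15 mice, Npc1l1 averaged 165 FPKM, a level exceeded by 2.98% of the genes tested, and Abcg5 averaged 106 FPKM, exceeded by 4.82%. At the other end Abca1 and Scarb1 averaged 7.42 and 5.52 FPKM. In water mice the ranges of neighbours in this order did not overlap, except between Soat2 and Nr1h2 and between Abca1 and Scarb1. In both PAC groups these 2 pairs overlapped too, as did Abcg8 with Nr1h2 and Soat2 with Nr1h3, which were neighbours there. In high PAC mice Npc1l1 and Abcg5 overlapped as well, and Npc1l1 exceeded Abcg5 in 4 of the 5 mice against 5 of 5 in the water group. The mean of Soat2 came below that of Nr1h2 in both PAC groups.

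**Figure D1:**
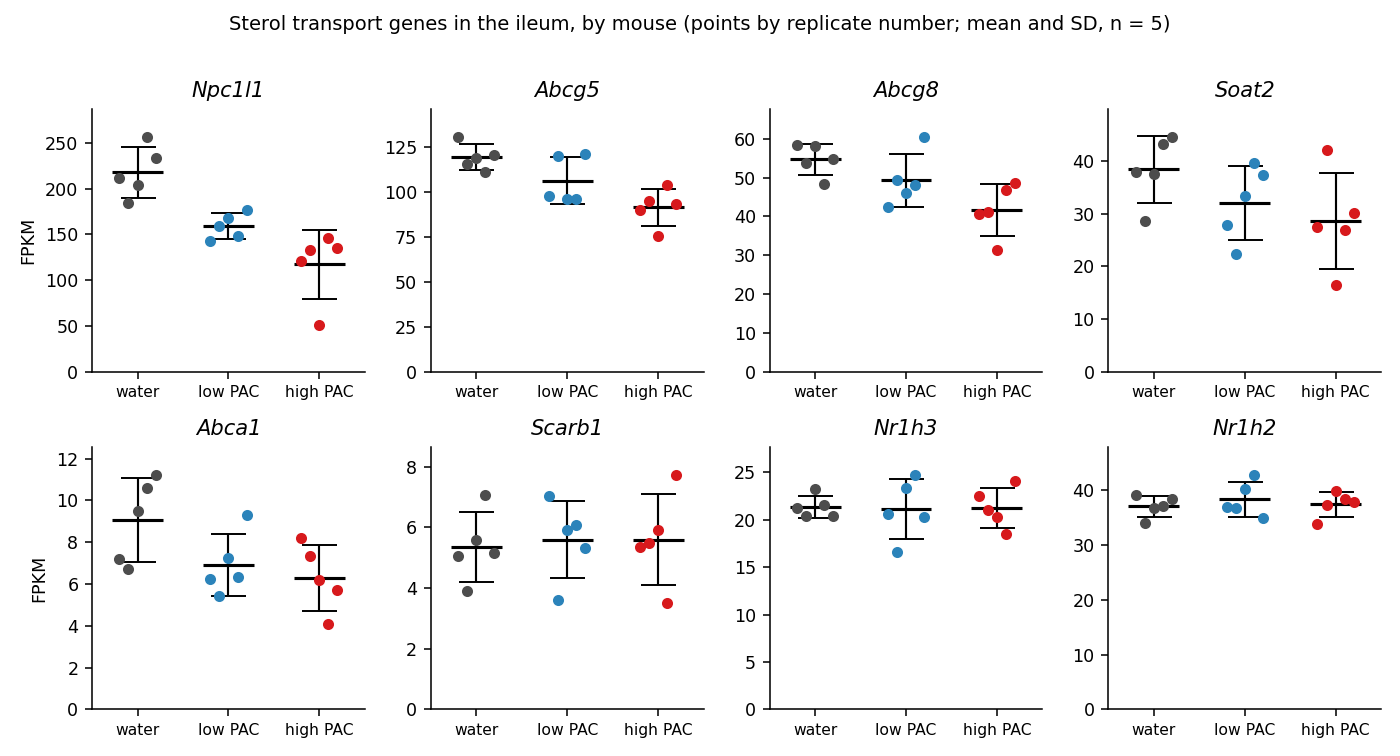
FPKM (vertical axes, from 0) of the 8 genes in each of the 15 mice, with the points of a group set from left to right by replicate number and the bars giving the mean and SD of 5 mice. All high PAC mice lie below all water mice for Npc1l1 and Abcg5, while the 3 groups overlap for Scarb1, Nr1h3 and Nr1h2.

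Npc1l1, the uptake transporter of the brush border, spans chr11:6211013-6230143 on the minus strand of GRCm38. Its level was 212, 184, 204, 257 and 233 FPKM in water replicates 1 to 5. In low PAC replicates 1 to 5 it was 143, 159, 168, 148 and 177 FPKM. In high PAC replicates 1 to 5 it was 121, 133, 51.4, 146 and 135 FPKM. Every mouse of either PAC group was below every water mouse, and 4 of the 5 high PAC mice were below every low PAC mouse. The group means were 218 ± 27.9 FPKM with water, 159 ± 14.1 with low PAC and 117 ± 37.9 with high PAC (SD, n = 5). In the edgeR fit the high PAC level was 49.5% lower than that of water, a log2 fold change of -0.98 (SE 0.21). The low PAC level was 29.8% lower than that of water, a log2 fold change of -0.51 (SE 0.21). These comparisons share the same water mice. The lowest mouse was high PAC replicate 3, which was also the lowest for enterocyte markers, and without it the log2 fold change of high PAC against water was -0.76. Water replicates 4 and 5, the highest for Npc1l1, were those with the highest Gata4. Low PAC replicate 4 and high PAC replicate 2, which had the highest Gata4 of their groups (6.23 and 4.23 FPKM), were not the highest of their groups for Npc1l1.

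Abcg5 (chr17:84658234-84683011, minus strand) and Abcg8 (chr17:84676302-84700333, plus strand) encode the efflux pair. In the GENCODE annotation they overlap by 6710 bases on opposite strands, and the sources used here do not say whether reads were counted by strand, so the split of reads in the overlap is uncertain. Abcg5 stood at 131, 116, 119, 112 and 121 FPKM in water replicates 1 to 5. In low PAC replicates 1 to 5 it stood at 98.1, 120.4, 96.2, 96.4 and 121 FPKM. In high PAC replicates 1 to 5 it stood at 90.0, 95.1, 75.8, 104 and 93.5 FPKM. All 5 high PAC mice were below the lowest water mouse, whereas low PAC replicates 2 and 5 lay within the water range. The means were 120 ± 7.27 FPKM with water, 106 ± 13.1 with low PAC and 91.7 ± 10.3 with high PAC (SD, n = 5), and high PAC differed from water by a log2 fold change of -0.48 (SE 0.11).

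Abcg8 was measured at 58.3, 53.8, 58.3, 48.4 and 54.8 FPKM in water replicates 1 to 5. Low PAC replicates 1 to 5 had 42.4, 49.3, 46.1, 48.2 and 60.6 FPKM. High PAC replicates 1 to 5 had 40.6, 41.2, 31.4, 46.9 and 48.5 FPKM. The high PAC and water groups overlapped through a single pair of values, since high PAC replicate 5 lay just above water replicate 4, and the highest value of all was in low PAC replicate 5. High PAC differed from water by a log2 fold change of -0.49 (SE 0.12), and low PAC from water by -0.21 (SE 0.12). Within a mouse the ratio of Abcg5 to Abcg8 FPKM stayed between 1.93 and 2.44 over all 15 mice, with means of 2.19 ± 0.0993 in water, 2.17 ± 0.20 in low PAC and 2.22 ± 0.182 in high PAC (SD, n = 5). The group means of this ratio differed by less than its SD between mice, while the ratio of Npc1l1 to Abcg5 was 1.83 ± 0.296 with water, 1.503 ± 0.154 with low PAC and 1.25 ± 0.324 with high PAC. That ratio ran from 1.595 to 2.31 in water mice, 1.32 to 1.74 in low PAC mice and 0.677 to 1.45 in high PAC mice. High PAC and water did not overlap, and low PAC overlapped both. How often other pairs of genes separate in this way was not measured, and nothing is read from it. In 14 of the 15 mice the uptake gene was above Abcg5, and the exception was high PAC replicate 3.

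Soat2 (chr15:102150526-102163469, plus strand), the cholesterol esterifying enzyme of the intestine, was less uniform. Its values were 38.0, 28.6, 37.5, 43.2 and 44.6 FPKM in water replicates 1 to 5. They were 27.7, 22.2, 33.4, 39.6 and 37.2 FPKM in low PAC replicates 1 to 5. They were 27.4, 42.1, 16.4, 26.9 and 30.1 FPKM in high PAC replicates 1 to 5. The groups overlapped widely, with high PAC replicate 2 above 3 of the water mice and water replicate 2 below 2 of the high PAC mice. High PAC differed from water by a log2 fold change of -0.51 (SE 0.21), which was -0.33 without high PAC replicate 3 and -0.71 without high PAC replicate 2.

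Abca1 (chr4:53030787-53159895, minus strand), the basolateral exporter and a textbook LXR target, was 1 of the 2 least abundant members. It was measured at 7.19, 6.73, 9.48, 10.6 and 11.2 FPKM in water replicates 1 to 5. The low PAC values were 6.24, 5.44, 7.26, 6.33 and 9.32 FPKM in replicates 1 to 5. The high PAC values were 8.20, 7.36, 6.17, 4.07 and 5.70 FPKM in replicates 1 to 5. Water replicates 3, 4 and 5 were above every PAC mouse, and water replicates 1 and 2 lay among them. The log2 fold change of high PAC against water was -0.62 (SE 0.18) and that of low PAC against water -0.44 (SE 0.18). Water replicates 4 and 5, the mice with the highest Gata4, were also the highest for Abca1, while low PAC replicate 4 and high PAC replicate 2, with the highest Gata4 of their groups, were not the highest of those groups. With water replicates 4 and 5 and high PAC replicate 3 set aside, the high PAC difference from water was -0.36 and the low PAC difference -0.20.

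Scarb1 (chr5:125277087-125341094, minus strand), the lipoprotein receptor gene, was at the lowest level of the 8. It ranged from 3.91 to 7.08 FPKM in water mice (median 5.15), from 3.62 to 7.05 in low PAC mice (median 5.92) and from 3.51 to 7.74 in high PAC mice (median 5.48). The groups overlapped along nearly their whole range, and the fitted log2 fold change of high PAC against water was -0.04 with a 95% interval from -0.46 to 0.38. The width of that interval leaves room for a moderate difference in either direction. The mean FPKM was slightly higher with high PAC (5.60 ± 1.51, n = 5) than with water (5.36 ± 1.14), opposite in sign to the fit, which scales libraries in a different way.

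The receptor genes were the steadiest members in water mice, with SDs of 5.55% and 5.33% of their means. Nr1h3 (chr2:91184061-91202834, minus strand) ran from 20.4 to 23.3 FPKM in water mice (median 21.2), from 16.6 to 24.7 in low PAC mice (median 20.6) and from 18.5 to 24.1 in high PAC mice (median 21.1). Nr1h2 (chr7:44549616-44553951, minus strand) ran from 34.0 to 39.1 FPKM in water mice (median 37.0), from 34.8 to 42.8 in low PAC mice (median 36.9) and from 33.8 to 39.8 in high PAC mice (median 37.8). The 3 groups overlapped for both genes. The 95% interval of the high PAC difference from water was -0.31 to 0.095 on the log2 scale for Nr1h3 and -0.23 to 0.072 for Nr1h2. Nr1h2 was above Nr1h3 in every mouse, with a ratio of their FPKM between 1.505 and 2.21.

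**Figure D2:**
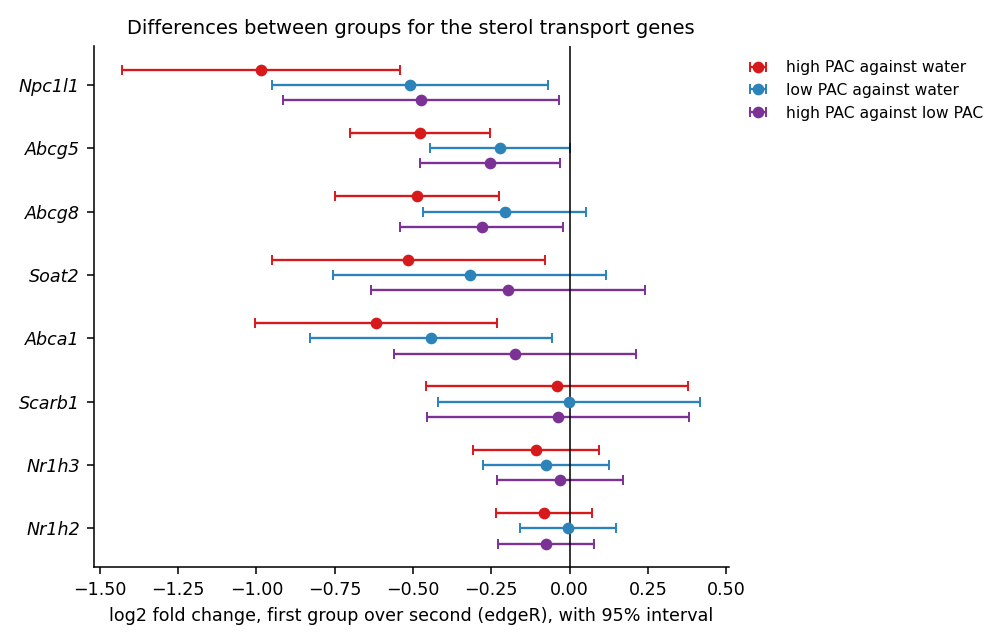
Log2 fold change of the first group over the second (horizontal axis, edgeR fit of 15 mice) for the 8 genes, with bars giving the 95% interval, in red for high PAC against water, blue for low PAC against water and purple for high PAC against low PAC. Npc1l1 lies farthest from 0, at -0.98 for high PAC against water, and the intervals of Scarb1, Nr1h3 and Nr1h2 include 0 in each comparison.

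Differences were fitted with edgeR, a negative binomial model of counts, after TMM scaling of the libraries, and p-values were adjusted by the Benjamini-Hochberg method over all genes tested. With high PAC against water, the fit called 2 genes (0.0139% of those tested), the nucleoside transporter Slc28a2 and the transporter Slc23a4, which are named because they were called and not by the rule for named genes. None of the 8 sterol genes was called by edgeR or by limma, and 5 of 8 were lower at an unadjusted p under 0.05, as were 10.4% of all genes. The count of 5 was 4 or 5 when 1 mouse was left out and 3 with water replicates 4 and 5 and high PAC replicate 3 set aside. In that last setting 2124 of 14503 genes had an unadjusted p under 0.05 in either direction. DESeq2 called 3 of the 8 as lower, Npc1l1, Abcg5 and Abcg8, and 2.19% of the 6577 genes to which it gave an adjusted p. It gave none to Scarb1 in this comparison, so this gene could not be called by it. Without high PAC replicate 3, edgeR called 1 of the 8, Npc1l1, and 3 of all 14455 genes then tested (0.0208%). All high PAC mice were below all water mice in 2 of 8 genes, Npc1l1 and Abcg5, against 0.646% of all genes tested. The median log2 fold change was -0.48 over the 8 genes and 0.0024 over all genes. Since the members were chosen with these differences known, nothing is read from these counts.

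With low PAC against water, edgeR called 0 genes (0.0%), with 520 genes at an unadjusted p under 0.05 (293 without water replicate 3 to 804 without water replicate 2, and 1258 with the 3 mice set aside), limma called 0, and DESeq2 called 2, of which none was a sterol gene. At an unadjusted p under 0.05, 2 of the 8 were lower, Npc1l1 and Abca1, against 2.21% of all genes. That count was 0 without low PAC replicate 1 or 4 and by limma, 1 without water replicate 3, 4 or 5, and 4 without low PAC replicate 5. Npc1l1 alone of the 8 had no overlap between the groups, against 0.111% of all genes, and the median log2 fold change of the 8 was -0.21. With high PAC against low PAC, edgeR, DESeq2 and limma each called 0 genes (0.0%), with 559 genes at an unadjusted p under 0.05 in the edgeR fit (264 without high PAC replicate 3, 986 without high PAC replicate 4, 863 without high PAC replicate 5 and 255 with the 3 mice set aside). Npc1l1, Abcg5 and Abcg8 were lower at an unadjusted p under 0.05, as were 2.05% of all genes, and none of the 8 had groups without overlap (0.0904% of all genes). The count of 3 fell to 0 without low PAC replicate 2 or 5 or high PAC replicate 1, and to 1 without high PAC replicate 3. The high PAC group was below the low PAC group by log2 fold changes of -0.47 (SE 0.21) for Npc1l1, -0.28 (SE 0.12) for Abcg8 and -0.26 (SE 0.11) for Abcg5. They were -0.27, -0.17 and -0.18 without high PAC replicate 3.

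Several of these genes are used mainly by enterocytes, and the enterocyte markers also differed between the groups. In a piece of tissue, fewer cells of a type and less RNA per cell cannot be told apart. All 8 enterocyte markers (Vil1, Alpi, Cdh17, Epcam, Krt20, Slc15a1, Krt8 and Sis) had a negative log2 fold change with high PAC against water. Its size was uneven, from -0.063 for Krt8 and -0.17 for Epcam to -0.61 for Sis and -0.82 for Slc15a1. Values relative to these markers, given below, therefore depend on which markers are taken. None of them was called by edgeR, and DESeq2 called 1, Krt20, as lower (DESeq2 adjusted p = 0.0305). Their summed level was 5754 to 6717 FPKM with water, 5768 to 6015 with low PAC and 4766 to 5897 with high PAC. On the mean log2(FPKM + 0.1) of the list, high PAC differed from water by -0.34, and by -0.19 without high PAC replicate 3. Each sterol gene was also expressed relative to the mean of these markers in the same mouse, on the log2(FPKM + 0.1) scale. The part of enterocyte content in the differences of the sterol genes was not tested. On this relative scale Npc1l1 differed between high PAC and water by -0.64 (-0.51 without high PAC replicate 3). All 5 high PAC mice were below all water mice, as in 0.0348% of all genes, against 0.646% before scaling. The marker mean was 8.49 in high PAC replicate 3 and 9.15 in the next lowest mouse, low PAC replicate 2. Subtracting it raised every gene in high PAC replicate 3 relative to the other mice, so few genes could lie wholly below water. The share of 0.0348% is therefore no measure of how rare the separation of Npc1l1 is. For low PAC against water the relative difference of Npc1l1 was -0.29, again without overlap, as in 0.0139% of all genes. Between high PAC and low PAC no member was without overlap on this scale (0.0139% of all genes). Before scaling the shares of these comparisons were 0.111% for low PAC against water and 0.0904% for high PAC against low PAC. The marker mean of the first group was lower in both, by -0.17, so the scaling limits these shares in the same way.

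For the other members the distance from water was smaller or of the other sign on the relative scale. Abcg5, Abcg8 and Soat2 were at -0.051, -0.066 and -0.13 with high PAC against water, with SDs between high PAC mice of 0.21, 0.18 and 0.24. Without high PAC replicate 3 they were at -0.13, -0.11 and -0.094, with SDs of 0.13, 0.17 and 0.26. Abca1 was at -0.19 (SD 0.48), and at -0.33 (SD 0.40) without that mouse. Scarb1, Nr1h3 and Nr1h2 were at 0.38, 0.33 and 0.35, and at 0.21, 0.20 and 0.18 without high PAC replicate 3. In plain log2(FPKM + 0.1) the high PAC difference from water was -0.39 for Abcg5, -0.40 for Abcg8 and -0.97 for Npc1l1, beside the -0.34 of the enterocyte markers.

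**Figure D3:**
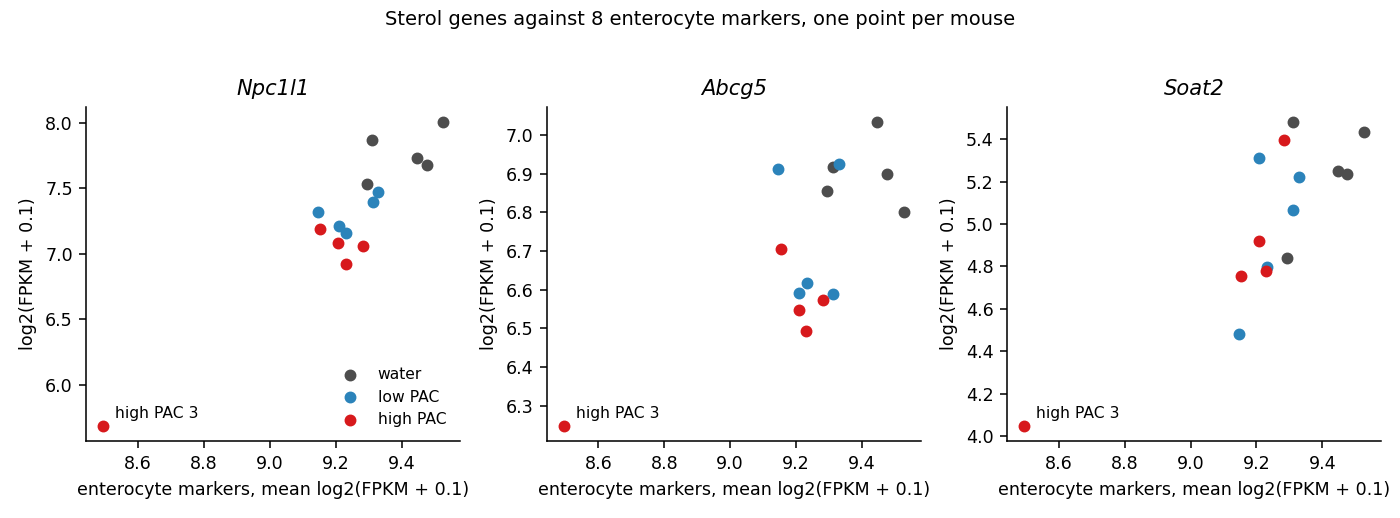
Log2(FPKM + 0.1) of Npc1l1, Abcg5 and Soat2 (vertical axes, which do not start at 0) against the mean log2(FPKM + 0.1) of 8 enterocyte markers (horizontal axes), with 1 point per mouse in grey for water, blue for low PAC and red for high PAC. High PAC replicate 3 lies alone at the lower left of each panel, and the other high PAC mice lie below the water mice for Npc1l1.

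Markers of gut position also varied. Gata4, which marks the proximal small intestine, averaged 7.09 ± 5.12 FPKM with water, 2.76 ± 2.42 with low PAC and 1.33 ± 1.63 with high PAC (SD, n = 5). The lactase gene Lct was at 56.3 ± 31.3, 27.7 ± 24.6 and 17.3 ± 20.7 FPKM. Of 10 proximal markers, 8 had a negative log2 fold change with high PAC against water and 9 with low PAC against water, and edgeR called none, while DESeq2 called Apoa4 as lower with high PAC. Their summed level ran from 796 to 1642 FPKM with water, 456 to 1178 with low PAC and 748 to 1105 with high PAC. Of 9 distal ileum markers, 6 were negative with high PAC against water (3 to 7 when 1 mouse was left out) and 2 with low PAC against water (0 to 7), none was called by edgeR, and their sum ran from 5391 to 8745 FPKM with water, 7792 to 9457 with low PAC and 7964 to 12045 with high PAC. Most of that sum was Fabp6, with means of 5679, 7011 and 7789 FPKM beside mean sums of 7363, 8835 and 9513. High PAC replicate 3 had the highest sum, but its mean log2(FPKM + 0.1) of the list, 7.59, was the lowest of its group. With water replicates 4 and 5 and high PAC replicate 3 set aside, 8 of the 9 distal markers were negative in both comparisons. The part of gut position in the sterol gene differences was not tested. With these 3 mice set aside, a choice made after seeing the data, the log2 fold change of high PAC against water was -0.63 for Npc1l1, -0.40 for Abcg5 and -0.41 for Abcg8, and that of Soat2 was -0.19. In the same setting the smooth muscle markers had a median log2 fold change of 0.95, against 0.42 with all mice (0.24 without water replicate 3 and 0.27 without water replicate 1). Of these 7 markers, 7 were then higher at an unadjusted p under 0.05, against 0 with all mice. In that setting 2124 of 14503 genes had an unadjusted p under 0.05 in either direction. The adipocyte markers had a median of 1.39, against 0.65 with all mice (0.21 without high PAC replicate 5 to 1.05 without water replicate 4).

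Smooth muscle markers summed to 267 to 898 FPKM with water, 562 to 986 with low PAC and 682 to 1085 with high PAC, with water replicates 1 and 3 at the lowest levels. Macrophage markers summed to 162 to 257, 161 to 221 and 158 to 358 FPKM in the same order of groups. Adipocyte markers summed to 119 to 575, 166 to 717 and 90.3 to 937 FPKM, and hepatocyte markers, of which Cyp7a1 was not listed, to 6.23 to 17.3, 12.8 to 27.6 and 16.6 to 35.2 FPKM. The 8 B cell markers had a median log2 fold change of -1.20 with low PAC against water, all 8 negative (-1.97 without low PAC replicate 5). With high PAC against low PAC it was 1.39, all 8 positive (0.68 without high PAC replicate 1). In both comparisons 0 of them had an unadjusted p under 0.05. No marker list held a gene called by edgeR, and the part of these cells in the values of the sterol genes was not tested.

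Members varied together to different degrees within the groups. After each group mean was subtracted from log2(FPKM + 0.1), Abcg5 and Abcg8 had a Pearson r of 0.819 and a Spearman rho of 0.875 over 15 mice, and r was 0.664 once the 2 mice with the most extreme Abcg5 were left out. Npc1l1 and Soat2 had an r of 0.711 and a rho of 0.507. That r was 0.616 without the 2 farthest mice, high PAC replicates 3 and 4, and 0.495 without high PAC replicate 3 alone. Npc1l1 and Abcg5 had an r of 0.631 and a rho of 0.589, and r was 0.241 without high PAC replicates 3 and 4, on which it thus rested. The receptors Nr1h3 and Nr1h2 had an r of 0.303 and a rho of 0.275, and r was -0.007 without low PAC replicates 2 and 4. Scarb1 and Nr1h3 had an r of 0.722 (0.743 without high PAC replicate 3). Some pairs were negative, such as Abcg5 with Scarb1 at -0.557 and with Nr1h3 at -0.492 (-0.598 and -0.665 without that mouse). These values describe 15 libraries that differ in tissue composition, as given above, and no test was made of them.

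For each member the 3 genes with the highest r among all genes tested were listed, on the same scale. A high r follows from that choice. The highest r that chance alone would give was not measured, nor was r without high PAC replicate 3. Nothing is therefore read from how close these genes lie to the members. The 3 nearest to Npc1l1 were AU040320, Chp2 and Wasf2 (r of 0.945, 0.936 and 0.93 over 15 mice). Soat2 was followed by Enpp7, the alkaline sphingomyelinase of the brush border, Ano6 and the amino acid transporter Slc7a8 (r of 0.951, 0.945 and 0.938). For Abcg5 the nearest were Zcchc6, the phospholipid flippase Atp8b1 and the motor protein gene Myo5b (r of 0.881, 0.872 and 0.857). For Abcg8 they were Irak2, Brd1 and Gpatch8 (r of 0.916, 0.903 and 0.874). Abca1 was nearest to Enpp2, Sfxn4 and Fmod (r of 0.869, 0.853 and 0.85), the last a matrix proteoglycan. Scarb1 was nearest to Chst1, Vtn and Retn (r of 0.936, 0.934 and 0.929), and Retn belongs to the adipocyte markers. Nr1h3 was nearest to Nat8, Zscan29 and Afmid (r of 0.922, 0.897 and 0.888), and Nr1h2 to Dnajc30, Tmem98 and Chchd10 (r of 0.931, 0.91 and 0.905). No member was among the 3 genes nearest to another member.

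Genes of cholesterol synthesis, which the factor SREBP2 switches on when cell cholesterol is low, lay mostly above 0. Of 26 genes, 22 had a positive log2 fold change with high PAC against water (median 0.18) and 23 with low PAC against water (median 0.28), against medians of 0.0024 and -0.014 over all genes. The medians rested in part on single mice. Without water replicate 5 they were 0.065 and 0.13, with 16 and 22 genes positive, and without low PAC replicate 2 that of low PAC was 0.14. None was called by edgeR or by DESeq2, and 2 and 6 of them were higher at an unadjusted p under 0.05, against 4.37% and 1.4% of all genes. When 1 mouse was left out these counts ran from 0 (without water replicate 5 or high PAC replicate 5) to 6 (without water replicate 2) and from 1 (without low PAC replicate 4) to 14 (without low PAC replicate 5). The thiolase Acat2, of the first step of sterol synthesis, was at 14.9 ± 3.16 FPKM with water, 20.3 ± 2.28 with low PAC and 20.7 ± 4.18 with high PAC (SD, n = 5). Its log2 fold change with high PAC against water was 0.38 (SE 0.15, edgeR adjusted p = 0.286). With high PAC against low PAC, 24 of the 26 were negative, with a median of -0.11, and none was called. That median was -0.0085 without low PAC replicate 2, with 11 of 26 positive, -0.19 without low PAC replicate 5 and -0.06 without high PAC replicate 3.

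Other targets of LXR were divided. Of 15 genes, 7 had a positive and 8 a negative log2 fold change with high PAC against water, the median was -0.022 (-0.066 to 0.084 when 1 mouse was left out, and 0.17 with the 3 mice set aside), none was called by edgeR or DESeq2, and 1 in each direction had an unadjusted p under 0.05, against 4.37% of all genes higher and 10.4% lower. The most divergent were the fatty acid synthesis genes Fasn and Scd1. Fasn was at 61.0 ± 46.2 FPKM with water, 101 ± 55.7 with low PAC and 104 ± 88.1 with high PAC (SD, n = 5). Scd1 was at 413 ± 341, 717 ± 399 and 685 ± 579 FPKM. The edgeR adjusted p with high PAC against water was 0.606 for Fasn and 0.666 for Scd1, and the SD within groups was as large as the difference between them. Their log2 fold changes were 0.68 and 0.64 with high PAC against water and 0.66 and 0.73 with low PAC against water, beside medians of 0.65 and 0.59 for the 6 adipocyte markers, whose part in these values was not tested.

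Lipoprotein assembly genes lay mostly below 0. Of 16 genes that build chylomicrons, 13 were negative with high PAC against water (median log2 fold change -0.39) and 14 with low PAC against water (median -0.30). None was called by edgeR, while 11 and 8 were lower at an unadjusted p under 0.05, against 10.4% and 2.21% of all genes. When 1 mouse was left out these counts ran from 9 to 12 and from 4 (without water replicate 1 or low PAC replicate 1 or 2) to 10. With the 3 mice set aside the counts were 6 and 5, beside 2124 and 1258 of 14503 genes in either direction. The medians of the 16 lipoprotein genes were then -0.19 and -0.20. DESeq2 called 4 of them as lower with high PAC, against 2.19% of the genes to which it gave an adjusted p, namely Apoa4, Apoa1, Mttp and Surf4, of which the last 3 are named after their values were seen. Apoa4, an apolipoprotein of chylomicrons and also on the proximal marker list, was at 424 ± 152 FPKM with water, 241 ± 83.6 with low PAC and 201 ± 55.6 with high PAC (SD, n = 5). Its log2 fold change with high PAC was -1.17 (SE 0.27), with an adjusted p of 0.162 by edgeR and 0.00494 by DESeq2. Apoc2, an activator of lipoprotein lipase, was at 50.5 ± 15.6, 38.5 ± 12.8 and 32.8 ± 2.79 FPKM, with a log2 fold change of -0.72 (SE 0.21, edgeR adjusted p = 0.202). With high PAC against water, all 8 enterocyte markers and 8 of 10 proximal markers were negative too, and edgeR called none of them. The proximal markers Fabp1 (0.46) and Slc40a1 (0.38) were positive. The part of enterocyte content and gut position in the lipoprotein list was not tested.

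Genes that handle sterol inside the cell were divided as well. Of 25 genes tested, 11 were positive and 14 negative with high PAC against water (median -0.05, and -0.072 to -0.015 when 1 mouse was left out). Of these, 1 was higher and 6 were lower at an unadjusted p under 0.05, against 4.37% and 10.4% of all genes, and none was called by edgeR. When 1 mouse was left out these counts ran from 1 to 3 and from 4 to 7. Gramd1b, which carries cholesterol from the plasma membrane to the endoplasmic reticulum, was at 21.9 ± 2.95 FPKM with water, 17.9 ± 2.74 with low PAC and 15.3 ± 3.61 with high PAC (SD, n = 5). Its log2 fold change with high PAC was -0.62 (SE 0.17), with an adjusted p of 0.185 by edgeR and 0.0395 by DESeq2, and it was the only gene of this list that DESeq2 called. The scavenger receptor gene Cd36 was at 16.4 ± 8.71, 24.5 ± 10.5 and 24.7 ± 12.6 FPKM (edgeR adjusted p = 0.557 with high PAC against water).

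**Figure D4:**
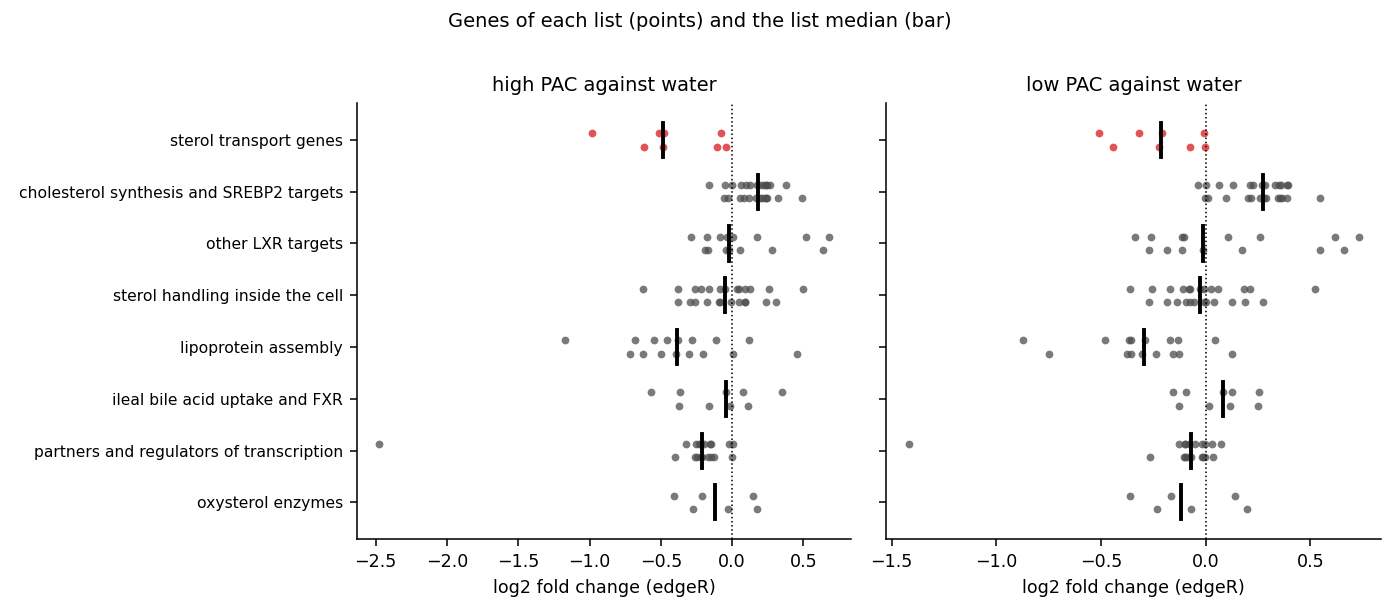
Log2 fold change from edgeR (horizontal axes, with a different range in each panel) of each gene of 8 lists, for high PAC against water on the left and low PAC against water on the right, with points for genes (red for the sterol transport genes) and a bar at the list median. Most cholesterol synthesis genes lie above 0, with medians of 0.18 and 0.28 (0.065 and 0.13 without water replicate 5), most transport and lipoprotein assembly genes lie below 0, and both panels use the same water mice.

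Among RXR partners, cofactors and intestinal transcription factors, 17 of 19 tested genes were negative with high PAC against water (median -0.21), 8 of them at an unadjusted p under 0.05 against 10.4% of all genes, and none was called by edgeR or DESeq2. Without high PAC replicate 3 the median was -0.11 and 3 were lower at an unadjusted p under 0.05, and when any 1 of the other mice was left out that count was 5 to 11. Gata4 had the largest difference, a log2 fold change of -2.48 (SE 0.76, edgeR adjusted p = 0.211), and was given no adjusted p by DESeq2. Hnf4g, an enterocyte nuclear receptor, was at 157 ± 12.5 FPKM with water, 136 ± 38.6 with low PAC and 127 ± 17.7 with high PAC (SD, n = 5, edgeR adjusted p = 0.275 with high PAC against water). Of the enzymes that make or modify oxysterols, the ligands of LXR, 4 of 6 tested were negative with high PAC against water (2 of 6 with the 3 mice set aside). At an unadjusted p under 0.05, 1 was lower (10.4% of all genes), and 0 to 2 were when 1 mouse was left out. None was called by edgeR or DESeq2. Cyp27a1, a sterol hydroxylase, was at 18.1 ± 3.10, 15.99 ± 3.73 and 15.9 ± 3.27 FPKM (edgeR adjusted p = 0.428). The sterol sulfotransferase Sult2b1 was at 150 ± 15.3, 139 ± 12.0 and 139 ± 12.7 FPKM (edgeR adjusted p = 0.329).

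The bile acid genes of the ileum, which return to the liver the bile salts that cholesterol uptake needs, were mixed. Of 9 tested, 3 were positive and 6 negative with high PAC against water (median -0.046, and -0.16 to 0.042 when 1 mouse was left out), none was called by edgeR or DESeq2, and 2 were lower at an unadjusted p under 0.05 (10.4% of all genes). The exporter gene Abcc2 had the largest difference, at 42.9 ± 3.99 FPKM with water, 40.1 ± 6.88 with low PAC and 30.8 ± 12.7 with high PAC (SD, n = 5), with an edgeR adjusted p of 0.30 for high PAC against water. Abcc3 was at 12.2 ± 1.09, 11.6 ± 2.04 and 10.1 ± 2.01 FPKM (edgeR adjusted p = 0.269).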

How the data were processed

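RNA from the ileum of 15 mice was sequenced on a BGISEQ-500 with paired reads. Per the study's methods, reads were filtered with SOAPnuke and mapped to mm10 with Bowtie2, whereas the submitters' processing notes name HISAT and DESeq2. The tool that counted reads is not given in the sources used here. The authors deposited an expected count per gene, an estimate that is not normalized, and an FPKM value scaled for length and library. A gene missing from a mouse was taken as 0, as the smallest FPKM listed was 0.01. Between 88.6% and 89.5% of the expected counts were whole, and they were rounded. No mouse was left out of the main fit, and no mice of a group agreed within counting noise.

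Groups came from the labels. edgeR 4.0.16 (TMM, quasi-likelihood test, R 4.3.3) fitted all 15 mice in 1 model of 14386 genes, with calls at a Benjamini-Hochberg adjusted p under 0.05. DESeq2 1.42.0, limma 3.58.1 on log2(FPKM + 0.1) or log2(FPKM + 1), other scalings, no filter, fits of 2 groups, a replicate block and leaving out each mouse were alternatives. The methods were tested on simulated data. The depth leaves counting error small for these genes, and the spread between mice sets the precision. Python 3.11.15, pandas 2.3.3, numpy 2.4.6 and matplotlib 3.10.9 made the summaries and plots.

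The 8 members, the 7 pathway lists and the 9 marker lists were chosen with earlier results of these data known. Named were all members, of each list every called gene and the 2 genes with the largest absolute log2 fold change with high PAC against water at a mean FPKM of at least 1, and for each member the 3 tested genes with the highest Pearson r, predicted genes left out. A gene that this rule names is not reported here. Positions are from GENCODE (GRCm38) and promoter windows from RefSeq (GRCm38.p6).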

Additional observations from a re-analysis of the deposited data

Results flagged for a closer look

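The level of Npc1l1 in high PAC replicate 3, 51.4 FPKM, lay far below the next lowest mouse of its group at 121 FPKM. The gap took up 0.737 of the range of the group, above the 0.71 that Dixon's test allows for 5 samples. Of 24 combinations of gene and group examined, 1 was singled out in this way, and chance alone gives about 1 in 20. The same mouse had 54.9 FPKM of Slc15a1 and 150 FPKM of Alpi, the lowest of all 15 mice in each, and the part of its enterocyte content in its Npc1l1 level was not tested.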

How the results depend on the processing

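With high PAC against water, edgeR called 2 genes, DESeq2 167 (23 higher and 144 lower), limma 9 with either pseudocount (7 higher and 2 lower) and edgeR 4 when only the 2 groups were fitted. It called 0 (2124 at an unadjusted p under 0.05) with 3 mice set aside, a choice added after seeing the data, and 2 to 11 when 1 mouse was left out, the highest without high PAC replicate 2, with 4 without water replicate 2. With low PAC against water, DESeq2 called 2 genes, and 0 to 1 were called when 1 mouse was left out, the 1 without low PAC replicate 2. With high PAC against low PAC, 0 genes were called under every alternative. In the pathway lists, DESeq2 alone changed the calls with high PAC against water, to 4 in lipoprotein assembly and 1 in sterol handling. In that comparison DESeq2 gave an adjusted p to 24 of 26 cholesterol synthesis genes, 10 of 15 other LXR targets, 17 of 25 sterol handling, 15 of 16 lipoprotein, 8 of 9 bile acid, 18 of 19 regulator and 2 of 6 oxysterol genes, and could call no others. The cause of these differences was not tested. The replicate block gave 2, 0 and 0 genes. Mice that share a number did not pair, as 5 of 15 pairs had an r over 0.1 (from -0.307 to 0.445) and 2 mice correlated best with their own number.

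Npc1l1 with high PAC against water kept its sign under all 25 alternatives, from -1.09 to -0.63, and was -0.51 relative to enterocyte markers without high PAC replicate 3. Abcg5, Abcg8, Soat2 and Abca1 also kept it in that comparison, with the smallest values, -0.051, -0.066, -0.13 and -0.19, relative to enterocyte markers (-0.13, -0.11, -0.094 and -0.33 without high PAC replicate 3). The sign of Scarb1 differed in 7, of Nr1h3 in 1 and of Nr1h2 in 3 alternatives. The alternatives moved the median of all genes with high PAC against water between -0.0086 and 0.09. Counting error limits Scarb1 most, with 152 to 327 counts per mouse.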
